A study of Homo sapiens with 9 samples.

Results

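The 10 genes described here encode the actin filament and the nonmuscle myosin motor that pulls on it. They were taken by symbol from the count table: the cytoplasmic actins ACTB and ACTG1, the crosslinkers ACTN1 and ACTN4, the myosin heavy chains MYH9, MYH10 and MYH14, the myosin light chain MYL9, and the filament binders TAGLN and TPM1. All 10 symbols were found, each once, among 20463 annotated genes, and all 10 passed the filter on low counts that left 13968 genes for testing. Messenger RNA was sequenced in A375, an established human melanoma cell line, in 3 groups of 3 libraries that the submitters call biological replicates. The control group received no Salvianolic acid B (SalB, a phenolic acid of the sage Salvia miltiorrhiza), and the other groups received it at 100 µM or 200 µM for 48 h. All groups were grown in serum-containing DMEM and carry the same batch value, and the design asks how expression differs at each dose from untreated cells and between the doses. A375 is a single line, so the values describe that line alone.

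Libraries held 27348621 to 30629685 counts. Replicate 3 of the 200 µM group stood apart from the other libraries: mitochondrial messenger RNA took 4.69% of its counts, against 1.85% and 1.81% in the other libraries of that dose, 2.09% to 2.29% in control and 2.83% to 3.11% at 100 µM. The gap between the GC-richest and the GC-poorest 12.5% of genes, as the difference of their mean log2 levels relative to the control mean, was 0.72 to 0.98 at 100 µM and 0.55 and 1.03 in replicates 1 and 2 at 200 µM. In replicate 3 at 200 µM that gap was -0.29, below the control range of -0.16 to 0.18. Transcripts of 8 of the 10 genes had a GC content between 55.6% (ACTN1) and 63.7% (MYH14), whereas MYH10 had 49.0% and TPM1 45.9%. For the labelled cell type, the summed level of 8 melanocyte lineage markers was 396 to 431 CPM (counts scaled to the same library total) in control, 606 to 615 at 100 µM and 451 to 600 at 200 µM, with the pigment genes PMEL, MLANA and TYR under 1 CPM in every library. Single markers did not all follow the sum. MITF was called lower at both doses (log2 fold changes of -0.70 and -0.52). Its 200 µM call was lost without any 1 control library, without replicate 1 of that dose or in a fit to these groups alone. S100B was called higher at 100 µM (0.58), in the direction of the sum, and lower at 200 µM (-1.13). DCT was called higher at 200 µM (1.90) from 0.229 CPM in control, a call lost without control replicate 1 or 3. Of the 7 markers tested, 2 were called higher and 1 lower at 100 µM, beside 18.9% and 18.2% of all genes. At 200 µM 2 were called higher and 2 lower, beside 19.8% and 17.5%. MITF, S100B and DCT held a minor part of the sum, and the markers that held most of it are not named here.

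Actin monomers assemble into polar filaments, and bipolar filaments of nonmuscle myosin II slide these past each other to generate contraction. A myosin II molecule holds a pair of heavy chains, each with an essential and a regulatory light chain, and phosphorylation of the regulatory chain by myosin light chain kinase or the ROCK kinases switches the motor on. Several genes of this machinery are classical targets of serum response factor (SRF), which binds a DNA element called the CArG box and is assisted by the MRTF proteins, which sense the pool of free actin.

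Sequence bears on how well the counts of paralogs can be separated, so the start of the coding sequence of both actins is shown, from the GENCODE v29 transcripts on GRCh38. Capitals mark the bases that differ, 6 of 30.
ACTB: atggaTgaTgaTatcgccgcgctCgtcGtC
ACTG1: atggaAgaAgaGatcgccgcgctGgtcAtT
Over the whole coding sequence of 1125 bases, the actins were identical at 91.3% of aligned bases, with a longest identical run of 59 bases. Identity was 82.1% between ACTN1 and ACTN4, 73.5% between MYH9 and MYH10, 71.5% between MYH9 and MYH14 and 66.2% between MYH10 and MYH14. The annotation lists 10 pseudogenes named for ACTB and 20 named for ACTG1. The sources used here do not say how reads that match several of these copies were counted, so the levels of both actins are uncertain to that extent.

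RefSeq promoter windows of 300 bases, from 250 bases before to 50 bases after a transcription start on GRCh38.p14, were found for 7 of the 10 genes, with 11 windows in all. ACTB, MYL9 and TAGLN had no entry in the table used. The CArG box was found in 2 of the 11 windows, those of ACTG1 and ACTN1, against 1.29% of all 35116 windows. The letters GGAATG, bound by TEAD factors and searched on both strands, were found in 3 of the 11 windows, against 14.0% of all windows. These belong to ACTN1, MYH9 and MYH10. The stretches of 30 bases that hold these matches are printed because they are the places where the genes share a motif, with the match in capitals.
ACTG1, chr17:81512874-81512903, minus strand: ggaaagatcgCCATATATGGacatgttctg
ACTN1, chr14:68977711-68977740, minus strand: tgtCCAAAAATGGtaacattCATTCCcttt
MYH9, chr22:36388020-36388049, minus strand: ggctcccggctgGGAATGgtcccgcggctc
MYH10, chr17:8630911-8630940, minus strand: gccaatgagcgtCATTCCaggtgggtggag
The ACTN1 stretch lies upstream of the third of its 4 listed starts and holds both motifs, with GGAATG on the other strand, as in MYH10. GGGCGG, searched on both strands, was found in 8 of the 11 windows, spread over all 7 genes, against 44.95% of all windows. CCAAT, likewise, was found in 5 of the 11 windows, from 5 genes, against 34.6%. These matches describe the letters only.

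At 100 µM most of the 10 genes were higher than in untreated cells. By edgeR's quasi-likelihood test, 9 of the 10 genes were called higher than control at an adjusted p under 0.05 and 0 lower, beside 18.9% and 18.2% of all genes tested. No gene of the 10 was lower at an unadjusted p under 0.05 either, and DESeq2 called 0 lower. The median log2 fold change over the 10 genes was 0.85, against -0.01 over all genes tested. The 10 genes and the lists below were chosen with earlier results of these data known. Their counts and medians beside those of all genes are therefore descriptive and test no joint change. All libraries at 100 µM lay above all control libraries for 9 genes, a pattern seen in 32.3% of all genes, and ACTN4 was the exception. None had all libraries below control (34.7% of all genes). Summed over the 10 genes, expression was 2919 ± 114 CPM in control (SD, n = 3), 4526 ± 109 at 100 µM and 3710 ± 223 at 200 µM. In these bulk samples, a change in the number of expressing cells and a change in RNA per cell cannot be told apart.

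At 200 µM the group split. MYH9, ACTB and ACTN1 were called higher than control (19.8% of all genes were), TPM1 was called lower (17.5% of all genes were), and the other 6 genes were not called. Without control replicate 1, or without control replicate 2, MYH9 was the 1 gene of the 10 still called. The median over the 10 genes was 0.39, against 0.00 over all genes tested. The libraries did not overlap for ACTB, ACTN1, ACTN4 and MYH9, all higher (24.4% of all genes), nor for TPM1, which was lower (24.5%). Compared directly, 7 genes were lower at 200 µM than at 100 µM (21.9% of all genes) and 0 were higher (22.4%), with 0 higher at an unadjusted p under 0.05 and by DESeq2. These 7 were ACTN1, MYH9, MYH10, MYH14, MYL9, TAGLN and TPM1, and for the same 7 all libraries at 200 µM lay below all at 100 µM (27.8% of all genes), with none the other way round (25.4%). Both comparisons with control share the 3 control libraries, so they are not independent of each other.

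**Figure D1:**
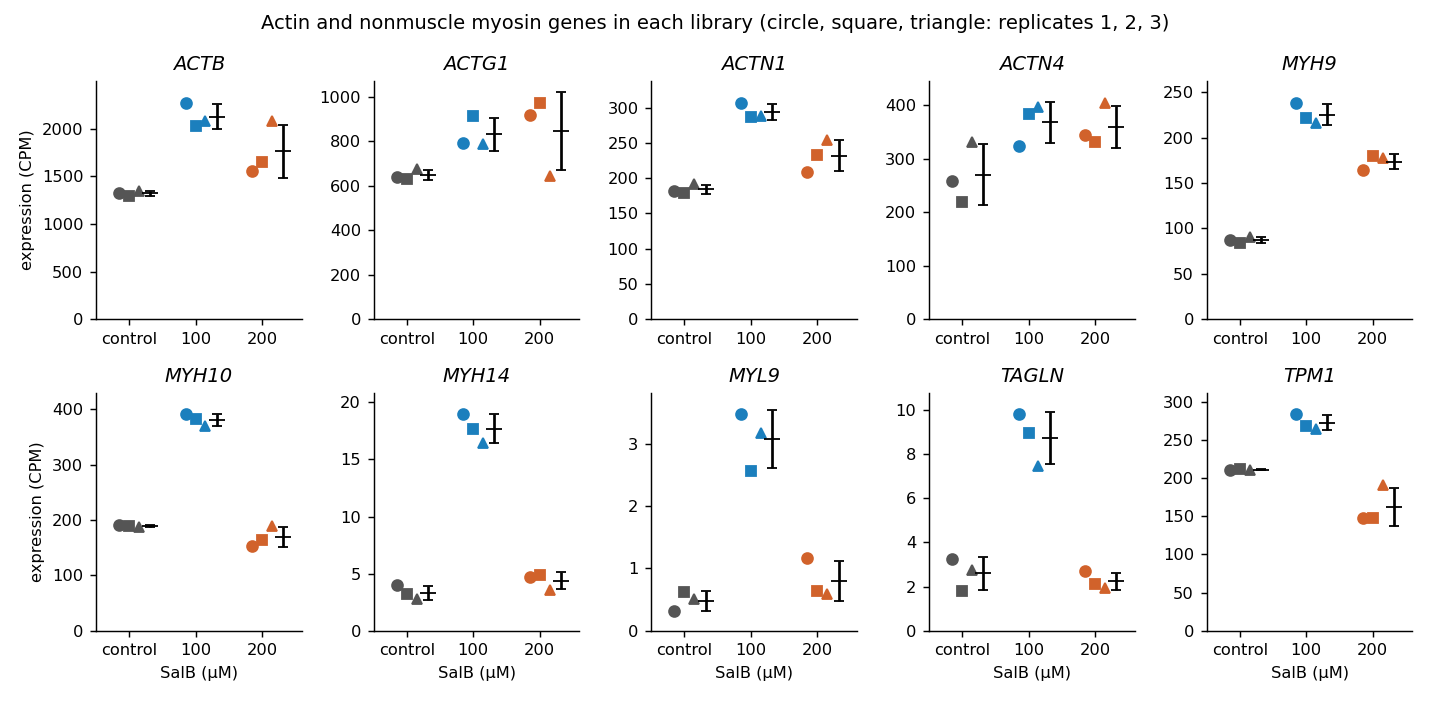
Expression of the 10 genes in each library, in CPM on linear axes from 0, by SalB dose; circles, squares and triangles are replicates 1, 2 and 3, and the black bars give the mean ± SD of 3 libraries. The 3 libraries at 100 µM lie above the control libraries for all genes but ACTN4, and replicate 3 at 200 µM (triangle) sits away from its group in ACTB, ACTG1 and TPM1.

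ACTB and ACTG1 encode beta- and gamma-actin, the actins of nonmuscle cells. ACTB (ENSG00000075624, chr7:5527147-5563784) read 1324, 1297 and 1348 CPM in the control libraries, 2272, 2026 and 2076 at 100 µM, and 1558, 1646 and 2078 at 200 µM. Every treated library was above every control library, and at 200 µM replicate 3 was as high as the 100 µM libraries. The fold was 1.61 at 100 µM (log2 fold change 0.68 ± 0.11 SE, edgeR adjusted p = 0.0013) and 1.33 at 200 µM (0.41 ± 0.11, edgeR adjusted p = 0.015). The doses differed by a log2 value of -0.27 ± 0.11, which was not called (edgeR adjusted p = 0.066). Without replicate 3 at 200 µM, that difference was -0.42 and was called (edgeR adjusted p = 0.00014), and ACTB at 200 µM was 0.29 above control (edgeR adjusted p = 0.0015). With the GC trend of each library removed, ACTB at 200 µM had nearly the same size (0.42) but was not called (edgeR adjusted p = 0.057).

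ACTG1 (ENSG00000184009, chr17:81509971-81523847) read 640, 630 and 675 CPM in control, 792, 916 and 786 at 100 µM, and 918, 974 and 646 at 200 µM. All 100 µM libraries exceeded control, while replicate 3 at 200 µM fell inside the control range. ACTG1 was the gene not called at 100 µM (0.36 ± 0.14, edgeR adjusted p = 0.075), and it was not called at 200 µM (0.38 ± 0.14, edgeR adjusted p = 0.060). Leaving out replicate 3 at 200 µM gave calls at both doses, with 0.38 at 100 µM (edgeR adjusted p = 0.00056) and 0.56 at 200 µM (edgeR adjusted p = 9.5e-05). In that replicate the actins moved in opposite directions relative to the other libraries of the dose: ACTB took 73.2% of their summed level per kilobase of exon there, against 59.1% and 59.0% in replicates 1 and 2. The control share was 63.5% ± 0.457 (SD, n = 3) and the 100 µM share 68.5% ± 2.88. The summed actin level was 1972 ± 48.5 CPM in control, 2957 ± 102 at 100 µM and 2607 ± 125 at 200 µM, and the 3 groups did not overlap.

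ACTN1 and ACTN4 encode the nonmuscle alpha-actinins, which crosslink antiparallel actin filaments in stress fibers and at adhesions. ACTN1 (ENSG00000072110, chr14:68874143-68979440) read 182, 179 and 191 CPM in control, 307, 286 and 288 at 100 µM, and 209, 233 and 254 at 200 µM. The groups were ordered without overlap, with 200 µM in the middle. Its log2 fold change was 0.68 ± 0.08 at 100 µM (edgeR adjusted p = 0.00040), 0.33 ± 0.08 at 200 µM (edgeR adjusted p = 0.013) and -0.34 ± 0.08 between the doses (edgeR adjusted p = 0.0094). The difference between doses was smaller and was not called with the GC trend removed (-0.17, edgeR adjusted p = 0.26), though without replicate 3 at 200 µM as well it was -0.37 and called (edgeR adjusted p = 5.5e-06).

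ACTN4 (ENSG00000130402, chr19:38647649-38731583) read 258, 219 and 331 CPM in control, 323, 383 and 396 at 100 µM, and 343, 331 and 404 at 200 µM. Control replicate 3 overlapped the treated range at 100 µM and lay just under its lower edge at 200 µM. The call at 100 µM was narrow (0.45 ± 0.15, edgeR adjusted p = 0.047) and ACTN4 was not called at 200 µM (0.42 ± 0.15, edgeR adjusted p = 0.060). At 100 µM the value was 0.21 with the GC trend removed (edgeR adjusted p = 0.44), and leaving out control replicate 1 or 2, any 100 µM library or 200 µM replicate 1 ended the call, as did a fit to these groups alone or one that kept the assembled transcripts. Of its exon bases, 14.2% overlap CAPN12 on the opposite strand, which read 0.126 to 0.234 CPM on average in the groups.

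MYH9, MYH10 and MYH14 encode the heavy chains of nonmuscle myosin IIA, IIB and IIC. MYH9 (ENSG00000100345, chr22:36281277-36388067) read 87.6, 84.4 and 91.0 CPM in control, 239, 222 and 216 at 100 µM, and 164, 180 and 177 at 200 µM. Each group was separate from the others. The fold over control was 2.57 at 100 µM (log2 1.36 ± 0.08, edgeR adjusted p = 6.4e-06) and 1.98 at 200 µM (0.99 ± 0.08, edgeR adjusted p = 2.3e-05). In both comparisons MYH9 was called in each of the 20 other settings tried. The drop between doses of -0.38 ± 0.07 (edgeR adjusted p = 0.0031) was not called with the GC trend removed (-0.16, edgeR adjusted p = 0.24), while with replicate 3 at 200 µM also left out it was -0.34 and called (edgeR adjusted p = 1.7e-05).

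MYH10 (ENSG00000133026, chr17:8474205-8630761) read 191, 189 and 187 CPM in control, 391, 382 and 369 at 100 µM, and 153, 165 and 189 at 200 µM. The 100 µM libraries stood clear of all others, and the 200 µM libraries reached from below the control range into it. MYH10 was 2.01-fold higher at 100 µM (log2 1.01 ± 0.09, edgeR adjusted p = 4.6e-05), was not called at 200 µM (-0.16 ± 0.08, edgeR adjusted p = 0.16), and fell by 1.17 ± 0.09 between the doses (edgeR adjusted p = 1.0e-05). Without replicate 3 at 200 µM it was called lower than control (-0.24, edgeR adjusted p = 0.0039). Removing the GC trend left the 100 µM value at 1.00.

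MYH14 (ENSG00000105357, chr19:50188186-50310544) read 4.02, 3.20 and 2.80 CPM in control, 18.9, 17.6 and 16.4 at 100 µM, and 4.75, 4.91 and 3.53 at 200 µM. Only the 100 µM libraries were set apart, and control and 200 µM overlapped. MYH14 was 5.29-fold higher at 100 µM (log2 2.40 ± 0.18, edgeR adjusted p = 2.5e-05) and 4.01-fold lower at 200 µM than there (edgeR adjusted p = 2.6e-05). At 200 µM it was not called against control (0.40 ± 0.18, edgeR adjusted p = 0.11), but without replicate 3 of that dose it was called higher at 0.55 (edgeR adjusted p = 0.012).

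The heavy chains thus made up different mixtures in the 3 groups. As a share of the summed level per kilobase of exon of the 3 genes, MYH9 was 31.03%, 30.60% and 32.40% in control, 36.92%, 35.82% and 36.01% at 100 µM, and 50.98%, 51.52% and 47.98% at 200 µM. The groups did not overlap. The share of MYH10 was 67.6% ± 0.835 in control, 61.3% ± 0.65 at 100 µM and 48.7% ± 2.15 at 200 µM (SD, n = 3), and that of MYH14 was 1.04% ± 0.186, 2.46% ± 0.0827 and 1.11% ± 0.246. The summed CPM of the heavy chains was 280 ± 3.46 in control, 624 ± 23.7 at 100 µM and 347 ± 24.1 at 200 µM. With the length of 1 transcript per gene in place of the exon length, the mean MYH9 share was 31.8%, 36.6% and 50.7%. All these shares were taken with the GC trend left in, and MYH9 and MYH10 differ in GC content. Over the 20 other settings, the log2 fold change at 100 µM ran from 1.11 to 1.43 for MYH9 and 0.99 to 1.07 for MYH10. At 200 µM it ran from 0.81 to 1.03 and from -0.24 to -0.09. The part of GC content in the shares was not tested. For the MYH9 share, the exact two-sided permutation test gave p = 0.1 in each of the 3 comparisons, the smallest that 3 libraries against 3 allow.

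**Figure D2:**
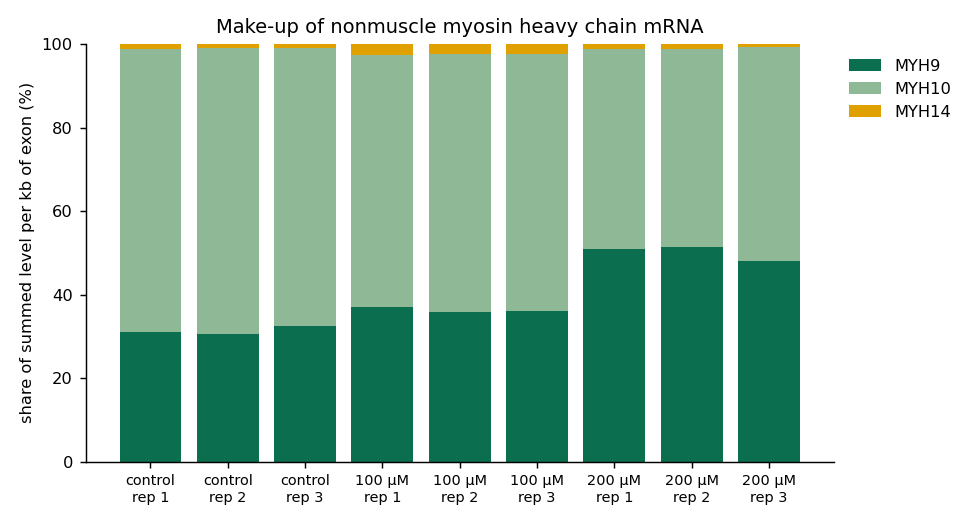
Share of each nonmuscle myosin heavy chain gene in their summed level per kilobase of exon (%), stacked to 100% for each of the 9 libraries. MYH9 takes 30.6% to 32.4% in control, 35.8% to 36.9% at 100 µM and 48.0% to 51.5% at 200 µM, and the MYH14 share is 2.46% on average at 100 µM.

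MYL9 encodes a regulatory light chain of smooth muscle and nonmuscle myosin. MYL9 (ENSG00000101335, chr20:36541484-36551447) was the scarcest of the 10, with 9, 18 and 15 counts in the control libraries, 108, 79 and 98 at 100 µM, and 32, 18 and 15 at 200 µM. In CPM these were 0.31, 0.62 and 0.51, then 3.47, 2.56 and 3.18, then 1.16, 0.64 and 0.60. The 100 µM libraries stood clear of all others, and control and 200 µM overlapped. MYL9 had the largest fold change of the 10 genes at 100 µM, 6.35-fold (log2 2.67 ± 0.34, edgeR adjusted p = 0.00044), with the widest error because of its low counts. At 200 µM it was not called (0.73 ± 0.35, edgeR adjusted p = 0.13), and between the doses it fell by 1.93 ± 0.32 (edgeR adjusted p = 0.0012).

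TAGLN encodes transgelin, a calponin-family protein that binds actin filaments and is abundant in smooth muscle. TAGLN (ENSG00000149591, chr11:117199321-117204782) read 3.26, 1.79 and 2.73 CPM in control, 9.79, 8.95 and 7.46 at 100 µM, and 2.68, 2.10 and 1.95 at 200 µM. Again the 100 µM libraries alone were set apart. TAGLN was 3.36-fold higher at 100 µM (log2 1.75 ± 0.23, edgeR adjusted p = 0.00056), fell by 1.96 ± 0.24 between the doses (edgeR adjusted p = 0.00019), and was not called at 200 µM against control (-0.21 ± 0.24, edgeR adjusted p = 0.53). Of its exon bases 11.4% overlap PCSK7 on the opposite strand, and no source used here gives the strand setting of the counting. PCSK7 averaged 50.8, 63.7 and 41.8 CPM in the 3 groups and was called at neither dose against control, and its part in the TAGLN values was not tested.

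TPM1 encodes an alpha-tropomyosin, a coiled coil that lies along the actin filament and controls access of myosin. TPM1 (ENSG00000140416, chr15:63042632-63071915) read 210, 212 and 211 CPM in control, 284, 269 and 265 at 100 µM, and 148, 148 and 190 at 200 µM. It was the one gene of the 10 called in opposite directions at the doses, with all 100 µM libraries above control and all 200 µM libraries below. The log2 fold change was 0.37 ± 0.10 at 100 µM (edgeR adjusted p = 0.021) and -0.38 ± 0.10 at 200 µM (edgeR adjusted p = 0.017), and the doses differed by -0.75 ± 0.10 (edgeR adjusted p = 0.00040). Against control, neither call held without any 1 of the 3 control libraries. The 100 µM call was also lost without replicate 1 of that dose, and the 200 µM call without replicate 1 of its dose or in a fit to these groups alone. Without replicate 3 at 200 µM the value there was -0.50 (edgeR adjusted p = 1.8e-05). An antisense gene, TPM1-AS, overlaps 16.1% of its exon bases and was not analysed here.

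**Figure D3:**
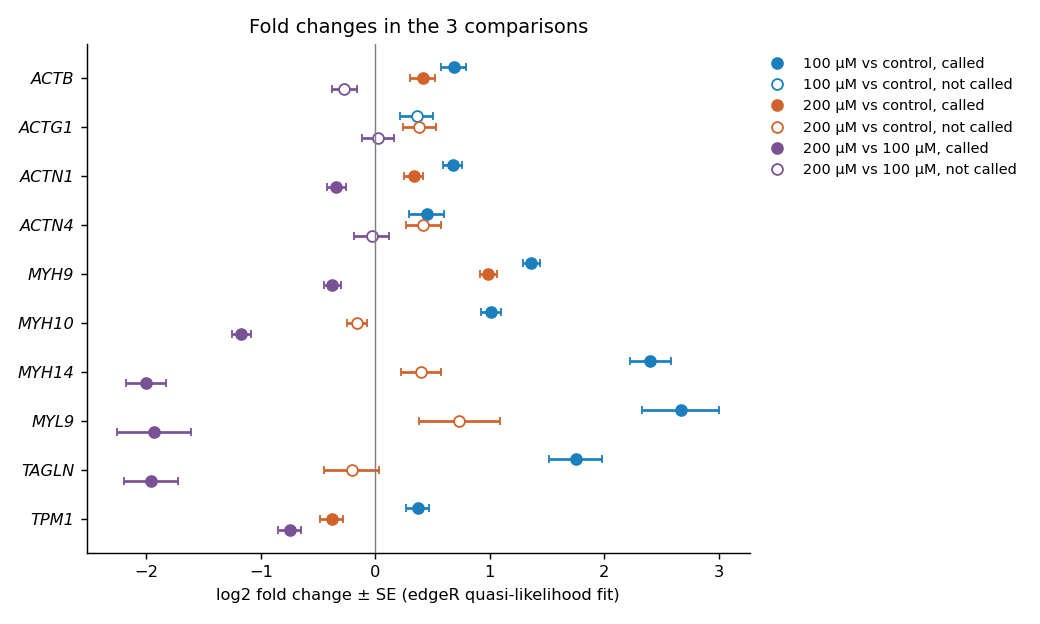
Log2 fold change ± SE of the 10 genes in the 3 comparisons, from the edgeR quasi-likelihood fit; filled points were called at an adjusted p under 0.05 and open points were not. MYH14, MYL9 and TAGLN lie between 1.75 and 2.67 at 100 µM and all 3 are called lower at 200 µM than at 100 µM, and TPM1 is called on both sides of 0 against control.

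Compared per kilobase of exon, the control levels ran from ACTB at 376 ± 7.22 CPM per kilobase and ACTG1 at 217 ± 7.97 to MYH14 at 0.322 ± 0.0597 and MYL9 at 0.170 ± 0.0552 (SD, n = 3). Between them stood ACTN4 at 44.2 ± 9.32, MYH10 at 21.0 ± 0.222, ACTN1 at 17.3 ± 0.597, TPM1 at 16.4 ± 0.0744, MYH9 at 9.73 ± 0.364 and TAGLN at 0.662 ± 0.190. At 100 µM MYH9, at 25.0 CPM per kilobase, stood above TPM1 at 21.2. At 200 µM ACTN4 was followed by ACTN1, MYH9, MYH10 and TPM1. Taken in each group's own order, no neighbours overlapped between libraries in control or at 100 µM. At 200 µM the ranges of ACTN1 and MYH9, of MYH9 and MYH10, and of MYH14 and MYL9 overlapped. Which of MYH10, ACTN1 and TPM1 came first in control depended on the length used: with 1 transcript per gene, TPM1 led at 53.3, followed by ACTN1 at 48.7 and MYH10 at 24.4 CPM per kilobase of transcript.

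The 10 genes varied together to different degrees over the 9 libraries. Over the 45 pairs, Pearson's r of log2 CPM had a median of 0.72 and ran from -0.22 (ACTG1 and TPM1) to 0.98 (ACTB and ACTN1), with 32 pairs over 0.5. MYH10, MYH14, MYL9, TAGLN and TPM1 had their closest partner among themselves, with TAGLN nearest to both MYH10 (0.94) and MYH14 (0.95). ACTG1 and ACTN4 were nearest to MYH9, at 0.68 and 0.76. Among all genes tested, those most like MYL9 were TET3 (r = 0.99), MED25 (0.98) and FGD3 (0.98). TET3 averaged 28.4 CPM in control, 43.9 at 100 µM and 31.9 at 200 µM. These correlations describe 9 libraries that fall into 3 groups and share the differences in depth, GC content and replicate 3 given above.

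The rest of the actomyosin machinery was followed in 160 tested genes of 166 listed by function. At 100 µM 51 were called higher and 22 lower, and at 200 µM 62 and 24, with median log2 fold changes of 0.11 and 0.22. Of all genes tested, 18.9% were called higher and 18.2% lower at 100 µM, and 19.8% and 17.5% at 200 µM. Without replicate 3 at 200 µM, the counts were 68 higher and 41 lower at 100 µM, and 72 and 38 at 200 µM. That fit called 29% of all genes higher and 27.8% lower at 100 µM, and 28.3% and 26.3% at 200 µM. Filament crosslinkers and bundlers were called higher for 11 of 16 genes and lower for 1 at 100 µM, with a median of 0.77, against 6 higher and 3 lower at 200 µM with a median of 0.26. FLNA, filamin A, which crosslinks filaments into networks, read 285.4, 285.5 and 311.5 CPM in control, 907, 854 and 840 at 100 µM and 683, 812 and 491 at 200 µM. Every treated library of FLNA exceeded control, with log2 fold changes of 1.56 ± 0.16 (edgeR adjusted p = 0.00013) and 1.17 ± 0.16 (edgeR adjusted p = 0.00048). PALLD, palladin, which binds alpha-actinin, rose by 1.58 ± 0.20 at 100 µM (edgeR adjusted p = 0.00040) and was not called at 200 µM (0.23 ± 0.20, edgeR adjusted p = 0.39). LCP1, the bundler L-plastin, went the other way, with 0.07 ± 0.42 at 100 µM (edgeR adjusted p = 0.91) and a rise of 2.19 ± 0.39 at 200 µM (edgeR adjusted p = 0.0023) from a mean of 0.399 CPM in control.

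Genes for anchoring filaments at adhesions and the membrane were called higher for 11 of 22 genes at 100 µM and 12 at 200 µM (18.9% and 19.8% of all genes). At 100 µM 0 were called lower by edgeR or DESeq2, with 0 at an unadjusted p under 0.05 (18.2% of all genes were called lower by edgeR). Without replicate 3 at 200 µM, 16 were higher and 1 lower at 100 µM (29% and 27.8% of all genes). At 200 µM 3 were called lower (17.5% of all genes). VCL, vinculin, which ties actin to integrin and cadherin complexes, rose by 0.86 ± 0.07 and 0.69 ± 0.07 at the doses (edgeR adjusted p = 4.1e-05 and 0.00011), and 11.1% of its exon bases overlap AP3M1 on the opposite strand. The tensins, which couple actin to integrins, rose at both: TNS3 averaged 43.5 CPM in control, 117 at 100 µM and 77.2 at 200 µM, and TNS1 averaged 0.626, 2.31 and 1.86. EZR, ezrin, which links filaments to the plasma membrane, rose at 200 µM alone by the calls, by 1.45 ± 0.09 (edgeR adjusted p = 9.9e-06), against 0.20 ± 0.09 at 100 µM (edgeR adjusted p = 0.13), and the doses differed by 1.25 ± 0.09 (edgeR adjusted p = 1.2e-05).

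The light chains and the regulators of myosin were mixed. Of 22 genes, 3 were called higher and 7 lower at 100 µM, beside 18.9% and 18.2% of all genes. At 200 µM 8 were higher and 3 lower, beside 19.8% and 17.5%. The medians were 0.10 and 0.30. Unlike MYL9, the abundant light chains fell at 100 µM. MYL12A, a nonmuscle regulatory light chain, read 264, 270 and 256 CPM in control, 174, 170 and 170 at 100 µM, and 190, 186 and 243 at 200 µM, so that both treated groups lay below control. The fall was 0.62 ± 0.10 at 100 µM (log2 scale, edgeR adjusted p = 0.0018), and 0.35 ± 0.10 at 200 µM (edgeR adjusted p = 0.024), where it was lost without any 1 control library, without replicate 1 of that dose or in a fit to these groups alone. MYL12B, a near-identical paralog whose reads may be split with those of MYL12A, dropped by 0.36 ± 0.07 at 100 µM (edgeR adjusted p = 0.0047), with -0.12 ± 0.07 at 200 µM (edgeR adjusted p = 0.22). MYL6, the essential light chain, averaged 712 CPM in control, 507 at 100 µM and 466 at 200 µM, with log2 fold changes of -0.49 ± 0.16 (edgeR adjusted p = 0.038) and -0.61 ± 0.16 (edgeR adjusted p = 0.015). The 100 µM call of MYL6 was lost without any 1 library of control or 100 µM, without 200 µM replicate 1 and with total-count scaling, and 11.2% of its exon bases overlap SMARCC2 on the opposite strand.

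MYLK, myosin light chain kinase, rose by 1.04 ± 0.16 at 100 µM (edgeR adjusted p = 0.0011), with 0.41 ± 0.16 at 200 µM (edgeR adjusted p = 0.070). At 200 µM MYLK was called higher with the GC trend removed (edgeR adjusted p = 0.047), without replicate 1 or 2 of that dose (edgeR adjusted p = 0.048 and 0.044) and with DESeq2 (adjusted p = 0.046). The kinases ROCK1 and ROCK2 were not called at either dose, with log2 values from 0.11 to 0.51, but were called at both with the GC trend removed, at 0.42 and 0.55 for 100 µM and 0.65 and 0.56 for 200 µM. In ROCK1, replicate 3 at 200 µM read 148 CPM against 98.5 and 69.5 in the other libraries of its dose. RHOA, the GTPase that activates the ROCK kinases, rose by 0.34 ± 0.10 at 200 µM (edgeR adjusted p = 0.021), which held neither without control replicate 1 or 3 nor in a fit to these groups alone, against 0.13 ± 0.10 at 100 µM (edgeR adjusted p = 0.33). RHOB, a related GTPase, read 42.3, 41.0 and 43.5 CPM in control, 47.4, 43.3 and 46.1 at 100 µM, and 379.5, 370.1 and 310.4 at 200 µM. The 200 µM libraries were set far apart, with an 8.35-fold rise (log2 3.06 ± 0.10, edgeR adjusted p = 3.1e-07). ARHGEF2, an exchange factor for RhoA, averaged 139, 161 and 326 CPM, a rise of 1.23 ± 0.06 at 200 µM (edgeR adjusted p = 2.7e-06). At 100 µM its 0.21 ± 0.06 (edgeR adjusted p = 0.028) was 0.01 with the GC trend removed (edgeR adjusted p = 0.94), and the call was also lost without any 1 control library or without replicate 1 or 2 of that dose, and with the replicate block (0.21, edgeR adjusted p = 0.083).

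In the tropomyosin and calponin family, 3 of 13 genes were called higher and 3 lower at 100 µM, beside 18.9% and 18.2% of all genes. The family had 4 higher and 3 lower at 200 µM, beside 19.8% and 17.5%. The other tropomyosins were not called in the fit to all libraries: TPM2, TPM3 and TPM4 had -0.13 ± 0.07, -0.25 ± 0.18 and -0.28 ± 0.12 at 100 µM (edgeR adjusted p = 0.20, 0.31 and 0.11), and -0.01 ± 0.07, 0.02 ± 0.18 and 0.13 ± 0.12 at 200 µM (edgeR adjusted p = 0.96, 0.96 and 0.45). At 100 µM TPM2 was called lower with the GC trend removed (-0.42, edgeR adjusted p = 0.0098), and TPM3 and TPM4 were called lower without replicate 3 at 200 µM (-0.23 and -0.26, edgeR adjusted p = 0.019 and 0.00034) and in a fit to these groups alone. Signs at 200 µM are not firm, since TPM2 turned positive with DESeq2's size factors, TPM3 turned negative with total-count scaling, and without replicate 3 of that dose both TPM3 (-0.24, edgeR adjusted p = 0.026) and TPM4 (-0.04) were negative. CNN2, calponin 2, rose from 17.4 CPM in control to 64.2 at 100 µM and 29.5 at 200 µM, log2 fold changes of 1.89 ± 0.13 (edgeR adjusted p = 1.7e-05) and 0.76 ± 0.13 (edgeR adjusted p = 0.0017). TAGLN3, a paralog of TAGLN known from neurons, fell by 2.14 ± 0.18 and 2.20 ± 0.18 at the doses (edgeR adjusted p = 4.4e-05 and 3.4e-05), so TAGLN and TAGLN3 were called in opposite directions at 100 µM. ACTA2, the smooth muscle alpha-actin, averaged 4.76 CPM in control, 9.40 at 100 µM and 5.64 at 200 µM, and rose by 0.98 ± 0.16 at 100 µM (edgeR adjusted p = 0.0017). An antisense gene, ACTA2-AS1, overlaps 17.3% of the ACTA2 exon bases. Another actin gene, ACTBL2, averaged 1.48 CPM in control, 1.27 at 100 µM and 0.598 at 200 µM. It was called lower than control at 200 µM (-1.31 ± 0.32, edgeR adjusted p = 0.011) and not called at 100 µM (-0.22 ± 0.30, edgeR adjusted p = 0.59).

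SRF and its cofactors were called higher for 2 of 10 genes and lower for 2 at 100 µM, near the 18.9% and 18.2% of all genes. At 200 µM 5 were higher and 0 lower, beside 19.8% and 17.5% of all genes, with 0 lower at an unadjusted p under 0.05 and by DESeq2. SRF itself read 25.1, 24.7 and 26.3 CPM in control, 33.40, 30.04 and 29.63 at 100 µM, and 38.18, 40.95 and 29.03 at 200 µM. All treated libraries were above control, and SRF was called at 200 µM (0.51 ± 0.13, edgeR adjusted p = 0.013) but not at 100 µM (0.29 ± 0.13, edgeR adjusted p = 0.11), where the value was -0.012 with the GC trend removed. SRF was called higher at 100 µM in a fit to these groups alone (0.30, edgeR adjusted p = 0.0029) and without replicate 3 at 200 µM (0.31, edgeR adjusted p = 0.0037). The 200 µM call of SRF was lost without control replicate 2. MRTFA rose by 0.84 ± 0.11 at 100 µM (edgeR adjusted p = 0.00044) and 0.46 ± 0.11 at 200 µM (edgeR adjusted p = 0.0091). MRTFB rose by 0.56 ± 0.16 at 100 µM (edgeR adjusted p = 0.025), a call lost without any 1 library of control or 100 µM, and had -0.14 ± 0.16 at 200 µM (edgeR adjusted p = 0.55), or -0.36 and a call without replicate 3 (edgeR adjusted p = 0.0039). FHL2, an LIM protein that binds SRF, read 48.7, 46.5 and 51.8 CPM in control, 29.1, 25.7 and 26.8 at 100 µM, and 84.5, 97.0 and 91.3 at 200 µM. It was called lower at 100 µM (-0.85 ± 0.09, edgeR adjusted p = 0.00016) and higher at 200 µM (0.89 ± 0.09, edgeR adjusted p = 9.9e-05).

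**Figure D4:**
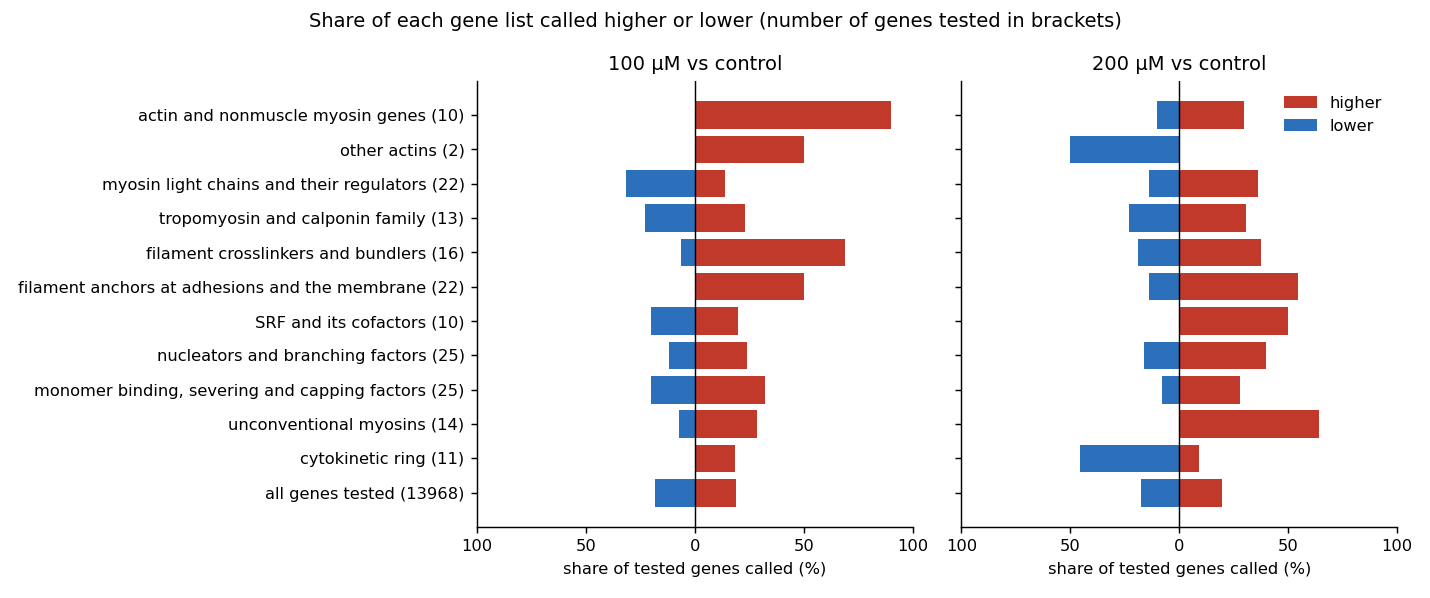
Share of tested genes in each list called higher (to the right) or lower (to the left) than control by edgeR at an adjusted p under 0.05, in percent, for 100 µM and 200 µM, with all genes tested as the last bar. Of the 10 actin and nonmuscle myosin genes, 9 were higher at 100 µM, and at 200 µM 3 were higher and 1 lower.

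Markers of other cell types were summed in the same libraries. Of 7 smooth muscle markers, which include ACTA2, the summed level was 24.9 to 30.6 CPM in control, 42.0 to 47.9 at 100 µM and 44.3 to 46.7 at 200 µM. MYH11, DES, CNN1 and SYNPO2 were under 1 CPM in every library. The sum was mostly SMTN, which averaged 22.8, 33.8 and 38.3 CPM in the 3 groups, against 4.76, 9.40 and 5.64 for ACTA2. SMTN was called higher at 100 µM (0.57 ± 0.10, edgeR adjusted p = 0.0023), but not with the GC trend removed (0.23, edgeR adjusted p = 0.24). The 8 fibroblast and endothelial markers summed to 19.4 to 23.0, 36.7 to 38.3 and 15.4 to 18.9 CPM, with COL3A1 and CDH5 under 1 CPM throughout. Among them COL1A1 and DCN were called higher at 100 µM, 6.48-fold and 2.95-fold, from low control means of 0.436 and 1.19 CPM. PECAM1, at 0.789 CPM in control, and DCN were called higher at 200 µM (3.54-fold and 1.69-fold) although the sum was lower there. Of the 6 markers tested, edgeR called 4 higher and 0 lower at 100 µM (18.9% and 18.2% of all genes). DESeq2 called 1 lower at 100 µM. At 200 µM edgeR called 2 higher and 1 lower (19.8% and 17.5% of all genes). COL1A1, DCN and PECAM1 held a minor part of the sum, and the markers that held most of it are not named here. The 200 µM call of DCN was lost without control replicate 1 or 2, without replicate 1 of that dose or in a fit to these groups alone. The smooth muscle sum and the fibroblast and endothelial sum were higher at 100 µM than in control in every library, and their part in the values of the 10 genes was not tested. The 7 epithelial markers summed to 235 to 244, 311 to 344 and 299 to 396 CPM, mostly KRT18, with KRT5 at 0 and EPCAM, KRT19 and CDH1 under 1 CPM. The 6 leukocyte markers summed to 17.9 to 21.6, 14.0 to 17.6 and 56.6 to 83.3 CPM, mostly CD68, with CD3E and TYROBP at 0.

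Removing the GC trend of each library left 8 of the 10 genes called higher at 100 µM, all but ACTG1 and ACTN4, with the median over the 10 at 0.75. Of all 13968 genes tested, 3093 were called higher and 2376 lower at 100 µM with the GC trend removed. Leaving out replicate 3 at 200 µM gave 10 called higher at 100 µM, 5 higher and 2 lower at 200 µM, and 8 lower between the doses. In that fit more of all genes were called as well: 29% higher and 27.8% lower at 100 µM, 28.3% and 26.3% at 200 µM, and 26.2% and 28.7% between the doses. With both changes together ACTG1 was higher at 200 µM than at 100 µM, by 0.24 (edgeR adjusted p = 0.0089).

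**Figure D5:**
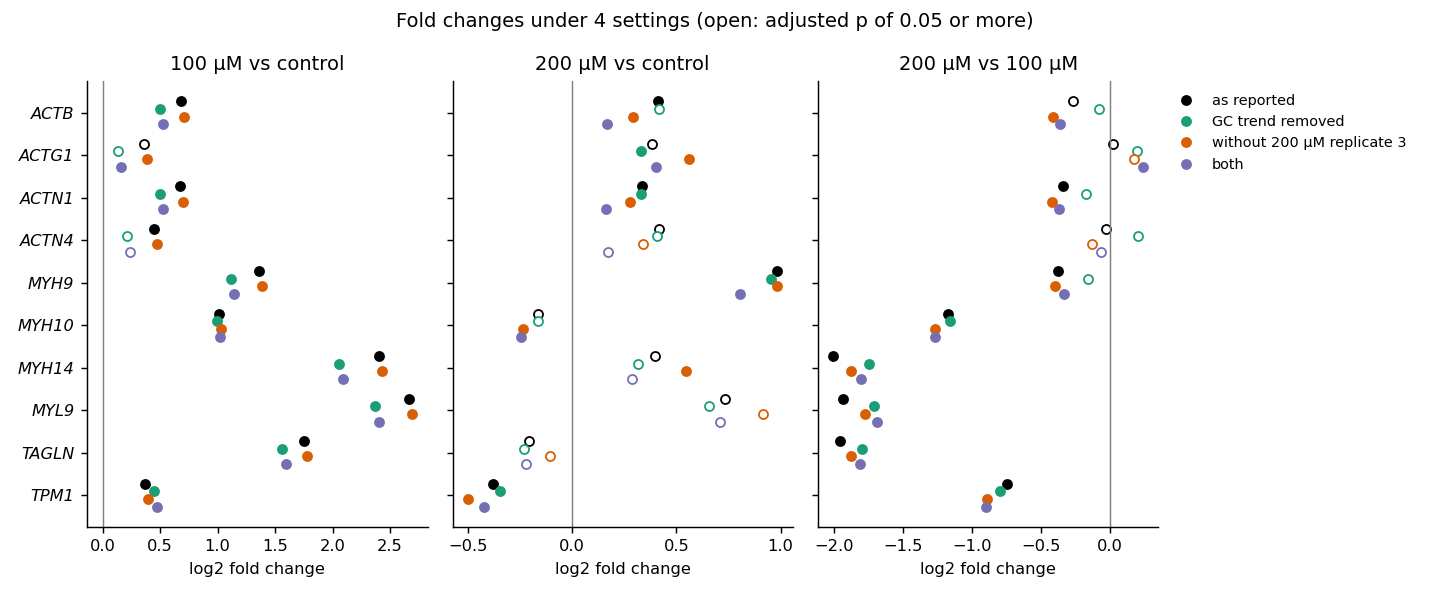
Log2 fold changes of the 10 genes in the 3 comparisons as reported, with the GC trend of each library removed, without replicate 3 of the 200 µM group, and with both changes; open points have an adjusted p of 0.05 or more. At 100 µM all points lie right of 0, and the open points there belong to ACTG1 and ACTN4.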

How the data were processed

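The values are whole-number read counts per gene, deposited by the authors for 9 libraries without normalization. HISAT2, featureCounts, FastQC and DESeq2 and the build GRCh38 are named in the submitters' processing notes. No source used here gives the strand setting or the treatment of multi-mapped reads. Poly-T capture and a NEBNext Ultra kit were used, per the labels' protocols. Of 22605 rows, 2142 assembled transcripts with no gene identifier (1.25% to 1.41% of counts) were left out of the tests.

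From the counts, R 4.3.3 and edgeR 4.0.16 (filterByExpr, TMM scaling, robust quasi-likelihood F test) compared the groups in 1 fit to all 9 libraries with 6 residual degrees of freedom. Benjamini-Hochberg adjustment ran over 13968 genes, and genes with an adjusted p under 0.05 are those called higher or lower. The SE is the size of the log2 fold change over the square root of F. CPM uses TMM-scaled totals, and correlations used log2 CPM with a prior count of 2. The GC trend was a lowess curve with a span of 0.3, removed as an offset. No library was a copy of another (lowest chi-square over degrees of freedom within a group 7.22). The fit was also run on simulated counts with the same dispersion for all genes, and without a GC trend or an outlying library. That run does not test how the fit handles those features in these data. Positions, exon lengths and overlaps are from GENCODE v29, and promoter sequences from RefSeq.

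DESeq2 1.42.0, other scalings and filters, single libraries left out and a replicate block were alternatives. The 10 genes, the lists and the markers were chosen with earlier results of these data known. Beyond the 10, the text names genes from a selection of up to 3 called genes per list with the largest fold change, though not every one selected. It also names 15 fixed regulators and paralogs, and the genes most correlated with the member of largest change. A further table of selected features was left out, since it holds none of the 10 genes. One leukocyte marker is not reported here.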

Additional observations from a re-analysis of the deposited data

How the results depend on the processing

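Over all alternatives, 539 of 600 values of the 10 genes kept their direction and side of the threshold, 22 gained a call, 31 lost one and 8 changed sign without a call. At 200 µM against control, DESeq2 called 5 of the 10 higher, leaving out 1 library gave 1 to 5 higher and 0 to 2 lower, and a fit to these groups alone gave 0 lower. With the GC trend removed and replicate 3 at 200 µM left out, a setting added after the data were seen, 2 were lower there, and 1 of the 10 was higher at 200 µM than at 100 µM. For the other cytoskeleton genes that setting gave 78 higher and 36 lower at 100 µM, 42 lower at 200 µM, and 60 higher and 66 lower between the doses. Leaving out 1 library gave 15 to 41 lower at 100 µM and 19 to 38 at 200 µM, and a fit to these groups alone 44 lower at 100 µM. Of all genes at 100 µM, that fit called 4098 higher and 4319 lower. One library left out gave 1837 to 4056 higher and 1613 to 3887 lower, the highest without replicate 3 at 200 µM. The added setting gave 4477 higher at 100 µM and 4575 at 200 µM.

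The sign of ACTG1 between the doses turned with total-count scaling (-0.054) and ranged from -0.11 to 0.18 with 1 library left out. ACTN4 between the doses was 0.20 with the GC trend removed, 0.17 with that and the replicate block, and -0.13 to 0.0089 with 1 library left out. SRF at 100 µM was -0.012 with the GC trend removed and -0.013 with the replicate block as well. At 200 µM, TPM2 was 0.0036 with DESeq2's size factors and with its test, TPM3 was -0.017 with total-count scaling, -0.014 with the replicate block and -0.15 in the added setting, and TPM4 was -0.049 in the added setting. With 1 library left out, MRTFB ranged from -0.36 to 0.0012, TPM2 from -0.045 to 0.026, TPM3 from -0.24 to 0.19 and TPM4 from -0.039 to 0.23. The cause was not tested for any of these. The labels do not state whether equal replicate numbers pair libraries. Same-number correlations of deviations from the group means were -0.16 to 0.03. In 2 of 18 checks over the group pairs a library correlated best with its own number. With 3 libraries a group, such correlations cannot exclude a pairing. The replicate block gave 9 of the 10 higher at 100 µM, 4 higher and 1 lower at 200 µM, ACTN4 being the gene gained (0.43, edgeR adjusted p = 0.030), and 7 lower between the doses. The shares of all genes called with the replicate block and by DESeq2 are not given here. Depth limits MYL9 most, at 9 to 108 counts a library.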

Other observations

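Calls in other lists of the actin system stand beside 18.9% of all genes higher and 18.2% lower at 100 µM, and 19.8% and 17.5% at 200 µM. No list was tested for a difference between the doses. Unconventional myosins, which carry cargo or bind membranes, were called higher for 4 of 14 genes and lower for 1 at 100 µM, and higher for 9 and lower for 0 at 200 µM by edgeR, with 0 lower at an unadjusted p under 0.05 and 0 by DESeq2. MYO18A averaged 35.5 CPM in control, 106 at 100 µM and 68.8 at 200 µM, with log2 fold changes of 1.58 ± 0.09 (edgeR adjusted p = 8.55e-06) and 0.96 ± 0.09 (edgeR adjusted p = 7.6e-05). MYO1D rose by 0.84 ± 0.10 at 200 µM (edgeR adjusted p = 0.00032). Nucleators and branching factors were called higher for 6 of 25 genes and lower for 3 at 100 µM, and for 10 and 4 at 200 µM. COBL, cordon-bleu, read 4.71, 3.13 and 4.36 CPM in control and 17.7, 19.4 and 21.4 at 200 µM, a 4.79-fold rise (edgeR adjusted p = 8.2e-05). DAAM1, a formin that Wnt signaling activates, rose by 1.06 ± 0.15 there (edgeR adjusted p = 0.00072).

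Of 25 genes for monomer binding, severing and capping, 8 were called higher and 5 lower at 100 µM, and 7 and 2 at 200 µM. CAPG, a gelsolin-family capping protein, read 66.9, 57.2 and 67.3 CPM in control, 38.6, 37.2 and 39.4 at 100 µM, and 175, 188 and 113 at 200 µM, and so was below control at the lower dose and above it at the higher. LIMK1, which inactivates the severing protein cofilin, rose by 0.93 ± 0.12 at 100 µM (edgeR adjusted p = 0.00040). Genes of the cytokinetic ring were called higher for 2 of 11 genes and lower for 0 at 100 µM by edgeR, with 0 lower at an unadjusted p under 0.05 and by DESeq2, and higher for 1 and lower for 5 at 200 µM. Without replicate 3 at 200 µM, 5 were lower at 100 µM and 9 at 200 µM, where 27.8% and 26.3% of all genes were lower in the same fit. PRC1 averaged 261 CPM in control, 257 at 100 µM and 126 at 200 µM. Its log2 fold change at 200 µM was -1.06 ± 0.10 (edgeR adjusted p = 9.0e-05). RACGAP1, a component of centralspindlin, read 196, 193 and 191 CPM in control and 107, 115 and 97.6 at 200 µM, a fall of 0.86 ± 0.08 on the log2 scale (edgeR adjusted p = 4.7e-05), and KIF23, its kinesin partner, fell by 0.89 ± 0.19 (edgeR adjusted p = 0.0057).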
